A study of Mus musculus with 36 samples.

Results

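Lung RNA of female mice dosed with the oil dispersant Corexit 9527 was compared with lung RNA of female mice dosed with saline, over all gene rows of the deposited table of female lungs. The comparison holds 6 of the 36 libraries of the study, chosen by the treatment and mouse number in their labels, with saline mice 1, 2 and 3 on one side and Corexit 9527 mice 10, 11 and 12 on the other. All 6 were wild-type C57BL/6 females, 8 weeks old at the first dose, and none received oil. Each mouse was given 50 µL on days 0, 7 and 13 and was killed on day 14, so the RNA was taken 1 day after the last dose. The treated mice received a fraction of Corexit 9527 in Hank's balanced salt solution after a 10-fold dilution (0.1 in the labels), and the control mice received saline. The study's methods give the route as oropharyngeal aspiration, whereas the labels give intratracheal instillation and speak of a water-accommodated fraction. The left lung was homogenized whole, so each library is a mixture of all lung cells, and in such bulk RNA fewer cells of a type and less RNA per cell cannot be told apart.

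Corexit 9527 is a mixture of surfactants and solvents that breaks floating oil into droplets, and the question asked of these mice was which genes of the lung differ after the dispersant alone. Injured lung is known to replace lost cells by division, chiefly of epithelial, endothelial and stromal cells and of resident macrophages. A dividing cell first loads the MCM helicase on its replication origins (licensing), then copies its DNA with the replication enzymes, and then separates the copies with the kinesins, kinases and kinetochore proteins of mitosis. Many genes of recombination repair are transcribed in the same S and G2 phases, so they are measured here beside the cell cycle genes. Macrophages activated by type 2 cytokines are known for chitinase-like proteins, resistin-like proteins and matrix-degrading enzymes.

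Between 17501180 and 30011557 counts were assigned to genes per mouse. In 4 of the 6 libraries 6.16% to 9.50% of the counts lay on the 13 rows of mitochondrial genes (names beginning mt-), but this share was 45.1% in saline mouse 3 and 38.4% in Corexit 9527 mouse 11. The same 2 libraries held few counts of GC-rich genes. The ratio of counts on the 10% of genes with the highest GC content to the 10% with the lowest, relative to the median of all libraries of the study, was -4.32 and -4.07 on the log2 scale in these 2 and between -0.89 and -0.13 in the other 4. Of the genes tested, 1788 were listed at 0 in saline mouse 3 and 589 in Corexit 9527 mouse 11 although each of the other 4 libraries had at least 1 CPM (counts scaled to a common library size by the TMM method). One such library stands in each group, so the main results are given for all 6 mice and again without these 2, which leaves 2 mice against 2. Fits that leave out 1 mouse, weight the libraries or adjust for GC content and length are given as alternatives. The part of the 2 libraries in each result was not tested beyond these fits.

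**Figure D1:**
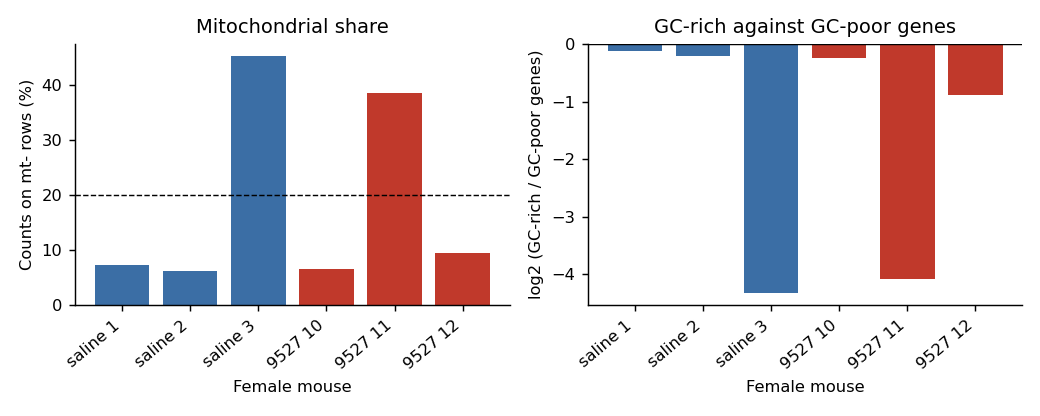
Share of counts on mitochondrial rows (left, in percent, with the limit of 20% dashed) and log2 ratio of counts on GC-rich to GC-poor genes relative to the median library (right) for the 3 saline (blue) and 3 Corexit 9527 (red) female mice. Saline mouse 3 and Corexit 9527 mouse 11 stand apart in both panels, and Corexit 9527 mouse 12 lies between them and the others on the right, at -0.89.

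The tissue matched its label. Markers of alveolar type 2 cells summed to between 7122 and 16487 CPM in the 6 libraries and those of club cells to between 7026 and 16983 CPM, with the 2 lowest values of each in the libraries rich in mitochondrial counts. Liver markers reached at most 1.12 CPM and skeletal muscle markers at most 2.27 CPM. Cardiac muscle markers summed to 238, 354 and 135 CPM in the saline mice and to 234, 113 and 218 CPM in the treated mice, with the lowest value of each group in the library rich in mitochondrial counts. Corexit 9527 mouse 12 was the lowest of the 6 in neutrophil markers, with 45.5 CPM against 108 to 176 CPM in the others, and in B cell markers, with 52.1 CPM against 102 to 175 CPM.

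No gene passed the test over all 6 mice. Of 15004 genes tested with edgeR's quasi-likelihood test, 0.0% had a Benjamini-Hochberg adjusted p under 0.05, and the smallest adjusted p was 0.99999. At an unadjusted p under 0.05, 37 genes were higher and 3 lower with Corexit 9527, which is 0.247% and 0.02% of the genes tested. This balance depended on the fit, with 38 higher and 28 lower after offsets for GC content and length and 895 and 792 with voom and sample quality weights. The 3 treated mice all lay above the 3 saline mice in 428 genes (2.85%) and all below them in 183 (1.22%). DESeq2, run on the same 6 libraries, called 6 genes higher and none lower, namely Sprr1a, Mmp12, Tnc, Kif15, Kif20a and Hist2h2aa1. The coefficient of variation between mice of a group that edgeR estimated was 0.778 with all 6 libraries and 0.237 with 4.

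Without the 2 libraries, edgeR again called none of 15297 genes (0.0%), with a smallest adjusted p of 0.188, while 454 were higher (2.97%) and 308 lower (2.01%) at an unadjusted p under 0.05. This balance rested on single mice, with 962 higher and 1360 lower without Corexit 9527 mouse 10 and 245 and 84 without saline mouse 1. DESeq2 called 98 genes higher and 15 lower in the same 4 mice, or 0.641% and 0.0981%. Of the 98 higher genes, 49 belong to 4 lists of replication licensing, DNA synthesis, mitosis and DNA repair genes, which hold 195 of the genes tested, and none of the 15 lower genes does. The lists, and the genes named below, were chosen with earlier results of these data known, so their counts are descriptions. Since edgeR called nothing, the differences below are given as values, with standard errors (SE) of the log2 fold change from edgeR, and calls by DESeq2 are named as such.

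The 3 genes with the smallest adjusted p by DESeq2 with 6 mice code for proteins of squamous epithelium, matrix and macrophages. Sprr1a, on chromosome 3 (ENSMUSG00000050359), codes for a small proline-rich protein of the cornified envelope of squamous epithelium. Its level was 1.62, 1.16 and 2.11 CPM in saline mice 1, 2 and 3 and 19.5, 8.83 and 12.4 CPM in Corexit 9527 mice 10, 11 and 12. The lowest treated mouse thus lay above every saline mouse, and the log2 fold change was 3.06 (SE 0.58) with 6 mice and 3.53 (SE 0.34) with 4, and 1.94 with 6 mice after offsets for GC content and length. The adjusted p from DESeq2 was 0.000473 with 6 mice and 8.65e-16 with 4, and from edgeR 0.99999 and 0.196.

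Mmp12, on chromosome 9 (ENSMUSG00000049723), codes for the elastase of macrophages. It was at 7.23, 9.89 and 6.56 CPM in the saline mice and at 72.1, 64.0 and 33.5 CPM in the treated mice. The groups did not overlap, with a log2 fold change of 2.84 (SE 0.44) with 6 mice and 2.62 (SE 0.39) with 4. Tnc, on chromosome 4 (ENSMUSG00000028364), codes for tenascin C, a matrix protein of wounds and of developing tissue. Its level was 15.8, 24.1 and 21.5 CPM with saline against 112, 78.6 and 70.9 CPM with Corexit 9527, a log2 fold change of 2.09 (SE 0.36) with 6 mice and 2.20 (SE 0.31) with 4. Again each treated mouse lay above each saline mouse, the library rich in mitochondrial counts included.

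**Figure D2:**
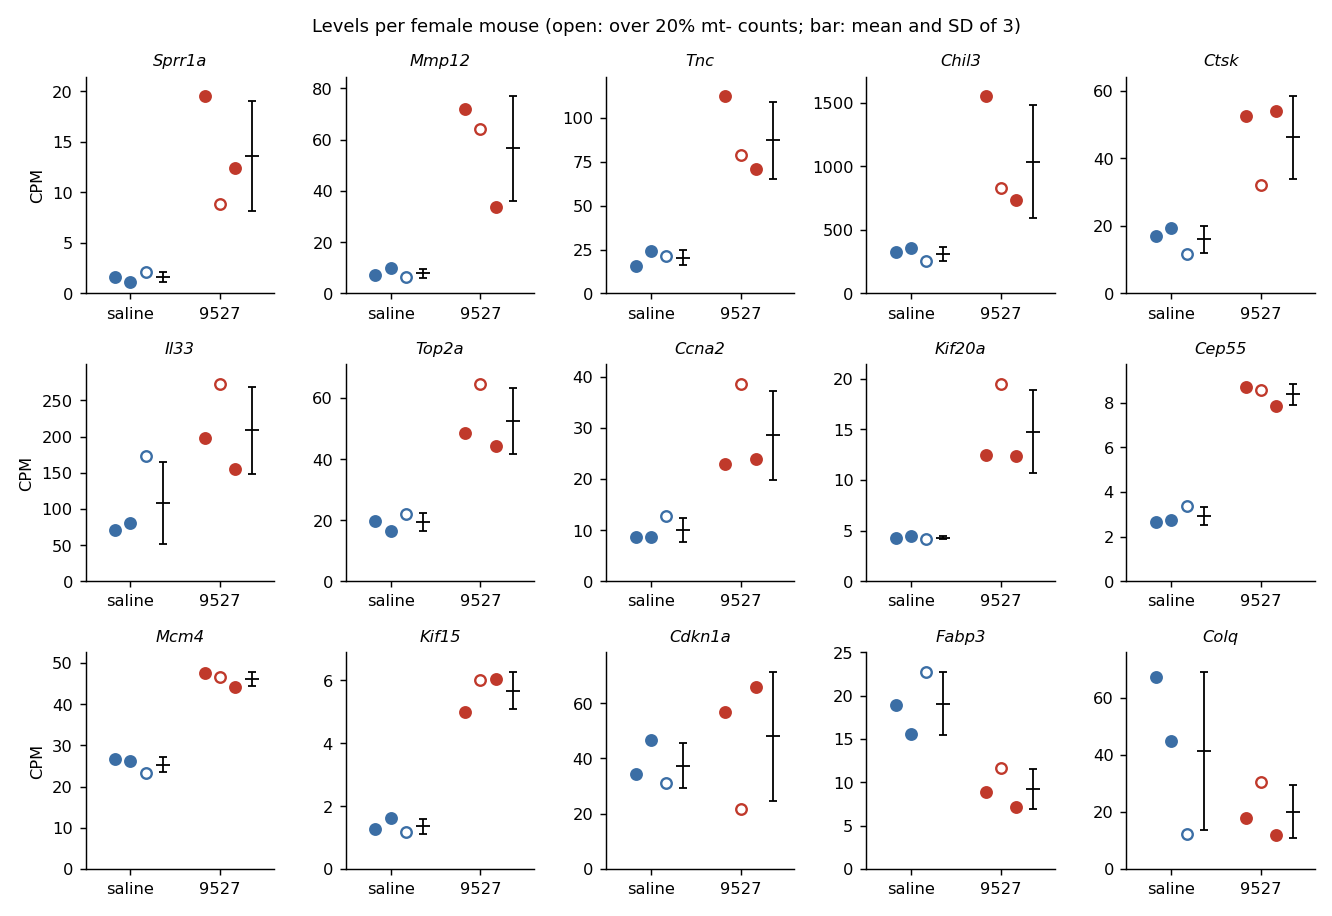
Level of 15 genes in CPM (y axes, each from 0) in each of the 6 female mice, saline in blue and Corexit 9527 in red, with open circles for the 2 libraries with over 20% mitochondrial counts and the mean ± SD of 3 mice beside them. The groups lie apart for genes such as Sprr1a, Mmp12, Tnc, Kif20a and Mcm4 and overlap for Il33, Cdkn1a and Colq.

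Most genes of cell division had higher estimates with Corexit 9527, though edgeR called none of them. Of 81 mitosis genes tested, 79 had a higher estimate with Corexit 9527 over all 6 mice, as did 8102 of the 15004 genes tested, with a median log2 fold change of 1.06 against 0.03 over all genes. At an unadjusted p under 0.05, 12 were higher and 0 lower, against 0.247% of all genes higher, and in 29 of the 81 the groups did not overlap, against 2.85% of all genes. With 4 mice the median was 1.28, 80 of 81 had higher estimates (7683 of 15297 over all genes), the groups lay apart upward in 79 (against 17.0% of all genes) and 68 were higher at an unadjusted p under 0.05, where the background is 2.97%. DESeq2 called 30 of them with 4 mice, all higher, against 0.641% of all genes.

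The summed level of the mitosis genes differed between the libraries rich in mitochondrial counts and the others. It was 473, 435 and 1079 CPM in saline mice 1, 2 and 3 and 923, 1510 and 859 CPM in Corexit 9527 mice 10, 11 and 12. Saline mouse 3 therefore lay above 2 of the treated mice, and Corexit 9527 mouse 11 above all others. On this scale all genes together also summed to more in these 2 libraries. Their sums were 1.85e+06 CPM in saline mouse 3 and 1.66e+06 CPM in Corexit 9527 mouse 11. In the other libraries they were 7.34e+05 to 7.87e+05 CPM. The order of the libraries thus depends on the scaling, and the same scale underlies all female levels given in CPM. Among the 4 other libraries both treated mice lay well above both saline mice, and between the 2 libraries rich in mitochondrial counts the treated one was also the higher.

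Several kinesins separated the groups without overlap. Kif20a, which works at the spindle midzone in cytokinesis, was at 4.28, 4.47 and 4.12 CPM in the saline mice and at 12.4, 19.4 and 12.3 CPM in the treated mice. The saline values differed little from each other, and the log2 fold change was 1.78 (SE 0.44) with 6 mice and 1.50 (SE 0.22) with 4. Kif15, a motor that helps to keep the spindle poles apart, was at 1.26, 1.62 and 1.16 CPM against 4.99, 6.01 and 6.03 CPM, with 2.06 (SE 0.56) on the log2 scale with 6 mice and 1.93 (SE 0.33) with 4. Kif23, a component of the centralspindlin complex, was at 2.11, 2.98 and 1.48 CPM against 6.82, 8.64 and 9.02 CPM. Its partner in that complex, Racgap1, was at 8.32, 9.45 and 9.20 CPM against 23.4, 13.9 and 20.6 CPM. In all of these genes each treated mouse lay above each saline mouse.

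Ccna2 codes for cyclin A2, which drives S phase and entry into mitosis. Its level was 8.71, 8.64 and 12.8 CPM with saline and 23.0, 38.5 and 23.9 CPM with Corexit 9527, a log2 fold change of 1.50 (SE 0.41) with 6 mice and 1.44 (SE 0.19) with 4. Hmmr, a spindle assembly protein, was at 2.88, 2.52 and 4.34 CPM against 8.36, 16.0 and 9.00 CPM. Cep55, which recruits the machinery that cuts the midbody, was at 2.63, 2.76 and 3.38 CPM against 8.72, 8.55 and 7.84 CPM. Spc24, of the kinetochore complex that binds microtubules, was at 0.983, 1.08 and 0.634 CPM against 4.26, 3.48 and 3.38 CPM. These 4 genes also separated the groups completely.

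Other mitosis genes depended more on the libraries. Mki67, the proliferation marker Ki-67, was at 38.4, 25.1 and 87.7 CPM with saline and 79.2, 135 and 89.0 CPM with Corexit 9527, so that saline mouse 3 lay above treated mouse 10. Its log2 fold change was 1.01 (SE 0.54) with 6 mice and 1.41 (SE 0.24) with 4. Ccnb1, the mitotic cyclin B1, was at 2.77, 2.17 and 6.66 CPM against 7.96, 8.74 and 5.64 CPM. Birc5, or survivin, was listed at 0 in saline mouse 3, at 3.23 and 3.68 CPM in the other saline mice and at 9.69, 9.49 and 10.2 CPM in the treated mice. With 4 mice its log2 fold change was 1.52 (SE 0.25). Pttg1, or securin, was the 1 member lower at an unadjusted p under 0.05 with 4 mice, at 45.0 and 34.9 CPM against 29.4 and 23.1 CPM.

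The DNA next to the starts of these genes is shown for the 7 mitosis genes with the smallest p values among those matched by symbol to the RefSeq promoter table used (build GRCm38.p6), followed by the DNA synthesis and the licensing gene chosen in the same way. Each run gives the 120 bases before the first listed transcription start, 5′ to 3′ on the strand of the gene. Capitals mark the cell cycle homology region TTTGAA, the CCAAT box CCAAT, or an E2F site written as TTTCCCGC, TTTGGCGC, TTTGCCGC or TTTCGCGC, each searched on both strands.
Kif15 (chr9:122950961-122951080, plus strand): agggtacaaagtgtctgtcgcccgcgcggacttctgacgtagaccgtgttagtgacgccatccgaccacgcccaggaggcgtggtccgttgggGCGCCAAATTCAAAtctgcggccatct
Kif23 (chr9:61946800-61946919, minus strand): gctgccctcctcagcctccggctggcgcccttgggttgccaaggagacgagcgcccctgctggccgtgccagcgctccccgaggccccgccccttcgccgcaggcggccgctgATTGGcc
Hmmr (chr11:40733438-40733557, minus strand): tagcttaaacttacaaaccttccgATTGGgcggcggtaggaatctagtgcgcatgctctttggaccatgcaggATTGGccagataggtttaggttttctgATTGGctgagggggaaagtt
Cep55 (chr19:38054864-38054983, plus strand): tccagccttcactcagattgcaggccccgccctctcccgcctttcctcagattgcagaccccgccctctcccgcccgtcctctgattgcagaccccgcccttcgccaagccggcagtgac
Racgap1 (chr15:99651657-99651776, minus strand): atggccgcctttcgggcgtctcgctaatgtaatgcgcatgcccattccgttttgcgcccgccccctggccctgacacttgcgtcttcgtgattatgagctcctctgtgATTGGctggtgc
Prc1 (chr7:80294331-80294450, plus strand): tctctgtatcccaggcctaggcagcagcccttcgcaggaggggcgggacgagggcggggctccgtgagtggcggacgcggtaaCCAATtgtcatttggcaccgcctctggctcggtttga
Kif11 (chr19:37376262-37376381, plus strand): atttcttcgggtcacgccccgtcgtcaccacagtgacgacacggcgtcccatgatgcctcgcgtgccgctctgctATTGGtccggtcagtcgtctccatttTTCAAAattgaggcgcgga
Top2a (chr11:99024190-99024309, minus strand): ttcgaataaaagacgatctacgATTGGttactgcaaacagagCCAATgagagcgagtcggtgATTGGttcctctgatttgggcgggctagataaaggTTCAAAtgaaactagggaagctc
Mcm7 (chr5:138171884-138172003, minus strand): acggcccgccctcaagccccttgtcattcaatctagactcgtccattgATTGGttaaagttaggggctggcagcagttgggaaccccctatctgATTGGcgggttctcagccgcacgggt
A CCAAT box stood in 7 of these 9 runs, the homology region in 3 and an E2F site in 1, where it abuts the homology region (Kif15). Of the 81 mitosis genes, 66 had a promoter in the table, and within 250 bases before the start 46 of these (69.7%) held the CCAAT box, 23 (34.8%) the homology region and 19 (28.8%) both. Over 27025 promoters of the same length, 1 for each gene, the shares were 34.5%, 16.3% and 5.73%, and over the 11118 genes tested that had a promoter 35.6%, 11.0% and 4.15%. E2F sites were held by 7.58% of the mitosis, 36.4% of the licensing (8 of 22), 12.9% of the DNA synthesis and 18.9% of the repair promoters, against 1.91% of all promoters and 3.17% of those of genes tested. The homology region was held by 13.6% of the licensing, 9.68% of the DNA synthesis and 5.41% of the repair promoters. These matches describe the letters of the reference genome and were not measured in the mice.

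All 37 DNA synthesis genes tested had higher estimates, with a median log2 fold change of 0.71 with 6 mice and 0.65 with 4. At an unadjusted p under 0.05, 2 were higher with 6 mice (0.247% of all genes) and 18 with 4 (2.97%), and DESeq2 called 10 with 4 mice (0.641%). Top2a, the topoisomerase that untangles replicated DNA, was at 19.8, 16.4 and 22.0 CPM with saline and at 48.5, 64.6 and 44.2 CPM with Corexit 9527. Its groups did not overlap, and the log2 fold change was 1.44 (SE 0.33) with 6 mice and 1.36 (SE 0.19) with 4. Rrm1, the large subunit of the enzyme that makes deoxyribonucleotides, was at 23.9, 30.1 and 38.2 CPM against 51.9, 62.2 and 50.3 CPM, also without overlap. Pcna, the sliding clamp of the polymerases, was at 54.4, 56.7 and 110 CPM against 86.5, 113 and 91.8 CPM, so that saline mouse 3 lay among the treated mice.

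Licensing genes had higher estimates in 25 of 28 with 6 mice (median 0.65 on the log2 scale) and in 28 of 28 with 4 mice (median 0.81), with 3 and 18 of them higher at an unadjusted p under 0.05, against 0.247% and 2.97% of all genes. Mcm4, a subunit of the replicative helicase, was at 26.7, 26.1 and 23.3 CPM in the saline mice and at 47.6, 46.5 and 44.1 CPM in the treated mice. The spread within each group was small beside the difference, a log2 fold change of 0.86 (SE 0.29) with 6 mice and 0.80 (SE 0.17) with 4. Mcm7 of the same helicase was at 17.9, 27.2 and 23.6 CPM against 46.2, 43.4 and 39.2 CPM. Dbf4, which activates the kinase that fires origins, was at 5.79, 7.26 and 6.98 CPM against 11.3, 17.9 and 13.0 CPM. Cdc6, which loads the helicase, was higher in treated mice 10 and 12, at 10.7 and 7.58 CPM, than in the saline mice, at 2.63 to 3.38 CPM, but was at 1.69 CPM in treated mouse 11.

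Genes of the DNA damage response and repair had higher estimates in 38 of 49 with 6 mice and 43 of 49 with 4, with medians of 0.39 and 0.32 on the log2 scale. At an unadjusted p under 0.05, 2 of the 49 were higher with 6 mice (0.247% of all genes) and 19 with 4 (2.97%), and DESeq2 called 5 with 4 (0.641%). Brca1, a ubiquitin ligase of double-strand break repair, was at 2.00, 2.19 and 3.70 CPM against 8.10, 1.88 and 7.06 CPM. The low value is that of mouse 11, and with 4 mice the log2 fold change was 1.85 (SE 0.28).

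The study also followed some genes of replication and repair by PCR, chosen on these mice among others, so that they are no independent sign of a direction. All 11 of them had higher estimates in both fits, with a median log2 fold change of 1.51 with 6 mice and 1.37 with 4, and 9 of the 11 were higher at an unadjusted p under 0.05 with 4 mice, against 2.97% of all genes. Rad51ap1, of recombination repair, was the 1 gene at that p with 6 mice (0.247% of all genes), at 1.16, 0.975 and 1.59 CPM against 2.32, 7.99 and 3.41 CPM. Uhrf1, which keeps DNA methylation through replication, was at 8.85, 10.4 and 1.59 CPM against 36.4, 13.2 and 23.6 CPM. Chaf1b, of the chromatin assembly factor, was at 4.71, 5.23 and 0.529 CPM against 11.1, 7.14 and 11.8 CPM. These 3 genes did not overlap between the groups. Pclaf, a partner of PCNA listed under its older name 2810417H13Rik, was at 4.81, 5.47 and 16.6 CPM against 16.6, 31.6 and 12.8 CPM. Bard1, the partner of Brca1, was at 1.40, 2.14 and 4.02 CPM against 4.36, 11.1 and 4.77 CPM. Ticrr, of origin firing, was at 1.54, 1.08 and 0 CPM against 3.03, 3.29 and 3.17 CPM. Pclaf overlapped, and the others did not. Dtl and Clspn, of the S phase checkpoint, were also listed at 0 in saline mouse 3. In the 4 other libraries Dtl was at 2.18 and 2.41 CPM against 9.51 and 8.50 CPM, and Clspn at 4.46 and 3.39 CPM against 10.4 and 9.84 CPM.

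Chek1, the kinase of the replication checkpoint, depended on the libraries. It was at 2.04, 2.36 and 9.83 CPM with saline and at 6.35, 7.14 and 5.04 CPM with Corexit 9527, with saline mouse 3 highest of all, so that the log2 fold change was 0.39 (SE 0.76) with 6 mice and 1.37 (SE 0.31) with 4. Chek2, the kinase that answers double-strand breaks, gave 0.23 (SE 0.29) with 4 mice, at 4.00 and 4.98 CPM against 4.67 and 5.85 CPM. Fen1, which trims Okazaki fragments, overlapped between the groups with 6 mice, at 6.95, 7.61 and 4.44 CPM against 15.4, 0.94 and 7.82 CPM, and gave 0.67 (SE 0.34) with 4. Chek2 and Fen1 were the 2 of the 11 that missed an unadjusted p of 0.05 there.

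Targets of p53, which halt the cycle or start cell death after DNA damage, had a lower median than the lists above. Of 34 tested with 6 mice, 22 had higher estimates, and the median was 0.21. None was past an unadjusted p of 0.05 in either direction, where 0.247% of all genes were higher and 0.02% lower. With 4 mice 4 of 35 were higher and 0 lower at that p (2.97% and 2.01% of all genes), and the median was 0.19. Cdkn1a, the cell cycle inhibitor p21, was at 34.3, 46.7 and 31.2 CPM with saline and at 56.7, 21.5 and 65.7 CPM with Corexit 9527, with the groups overlapping through mouse 11. Its log2 fold change was 0.36 (SE 0.48) with 6 mice and 0.60 (SE 0.21) with 4. Among regulators of G1 and S phase the median was 0.21 with 6 mice and 0.20 with 4. At an unadjusted p under 0.05, 0 of 31 were higher with 6 mice (0.247% of all genes) and 7 of 32 with 4 (2.97%), and 2 were called by DESeq2 with 4 (0.641%). These were E2f8, a repressor of the E2F family, and Ccne2, cyclin E2. E2f8 was at 3.90, 3.14 and 7.51 CPM against 8.10, 25.0 and 9.18 CPM, and Ccne2 at 4.56, 3.52 and 13.1 CPM against 10.1, 27.2 and 10.5 CPM.

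**Figure D3:**
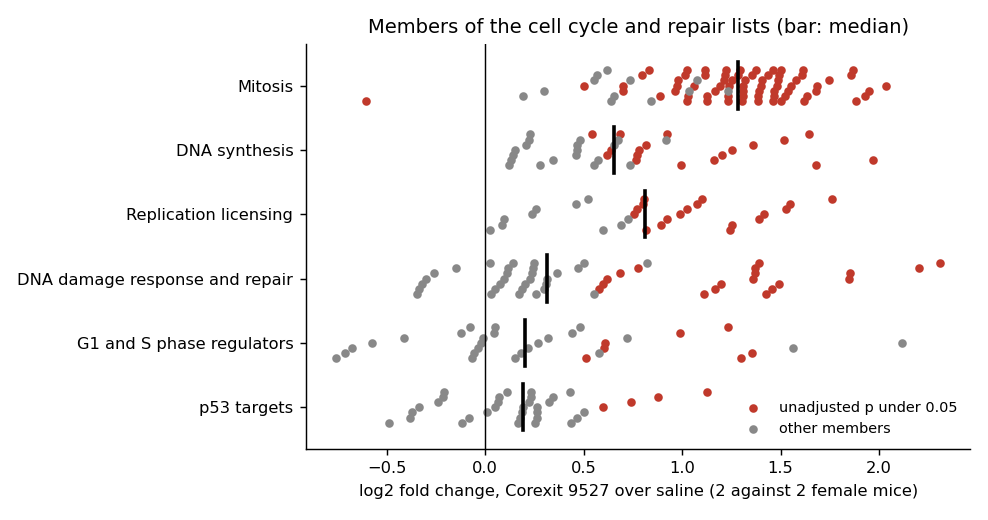
Log2 fold change with Corexit 9527 (x axis) of each member of 6 gene lists (rows) in the fit of 2 against 2 female mice, with members at an unadjusted p under 0.05 in red, other members in grey and the list median as a black bar. The mitosis members lie almost wholly to the right of 0, around 1.28, and the p53 targets on both sides of 0, around 0.19.

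Genes of alternatively activated macrophages formed the next group. Of 34 tested, 28 had higher estimates with 6 mice and 31 with 4, with medians of 0.54 and 0.57, and 2 and 10 were higher at an unadjusted p under 0.05, against 0.247% and 2.97% of all genes. After offsets for GC content and length the median with 6 mice was 0.27 (-0.15 over all genes). Chil3, the chitinase-like protein Ym1, was at 324, 361 and 253 CPM with saline and at 1552, 830 and 733 CPM with Corexit 9527, with no overlap and a log2 fold change of 1.73 (SE 0.46) with 6 mice and 1.74 (SE 0.36) with 4. Retnla, the resistin-like protein Fizz1, varied widely among saline mice, at 92.2, 479 and 295 CPM against 1649, 719 and 518 CPM. Ear1, an eosinophil-associated ribonuclease gene of a family with similar copies, was lower in each treated mouse, at 12.5, 12.0 and 13.9 CPM against 5.25, 11.7 and 7.55 CPM.

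Markers of macrophages and monocytes as a class gave medians of 0.14 and 0.04. The summed level of 6 macrophage markers was 364 to 415 CPM in the saline mice and 397 to 496 CPM in the treated mice, with the groups overlapping. With 6 mice 1 of the 29 members of that class was higher at an unadjusted p under 0.05 (0.247% of all genes). With 4 mice 4 were higher and 3 lower (2.97% and 2.01% of all genes), and 4 lay apart upward and 6 downward (17.0% and 16.3%). The 3 lower members were Fabp1, a fatty acid binding protein, Apoe, apolipoprotein E, and Lyz1, a lysozyme, at -1.41, -0.74 and -0.57 on the log2 scale. The 4 higher members were Krt79 and Atp6v0d2, at 0.76 and 0.71, and Ctsk and Ctss, which DESeq2 also called. Ctsk, the collagen-degrading cathepsin K, was at 17.1, 19.4 and 11.6 CPM against 52.5, 32.1 and 53.9 CPM. Its log2 fold change was 1.52 (SE 0.39) with 6 mice and 1.54 (SE 0.18) with 4, where DESeq2 gave an adjusted p of 1.45e-09. Ctss, cathepsin S, was at 164, 183 and 256 CPM against 293, 347 and 275 CPM, and did not overlap. Lysosome and phagocyte genes had higher estimates in 46 of 59 with 6 mice and 43 of 59 with 4, with medians of 0.18 and 0.17. After offsets for GC content and length their median with 6 mice was -0.028 (-0.15 over all genes). In that list 1 gene was higher at an unadjusted p under 0.05 with 6 mice (0.247% of all genes) and 11 with 4 (2.97%), and DESeq2 called Ctsk and Ctss with 4.

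Il33, the alarmin held in the nuclei of type 2 alveolar and stromal cells, was at 70.1, 80.9 and 173 CPM with saline and 198, 273 and 154 CPM with Corexit 9527. Saline mouse 3 lay above treated mouse 12, so the groups overlapped, and the log2 fold change was 0.95 (SE 0.48) with 6 mice and 1.23 (SE 0.20) with 4. The lists of cytokines and receptors (0.24 and 0.17) and of chemokines (-0.02 and 0.03) had with 4 mice 2 higher and 0 lower of 31 cytokine genes and 0 higher and 1 lower of 34 chemokine genes at an unadjusted p under 0.05, where 2.97% of all genes were higher and 2.01% lower. Neutrophil markers had medians of -0.25 and -0.29, with the low value of mouse 12 noted above. T and NK cell markers (-0.02 and -0.09) and B and plasma cell markers (-0.04 and -0.13) had lower medians than all genes, and mouse 12 was the lowest of the 6 also in T cell markers (29.1 CPM against 42.4 to 57.5 CPM), plasma cell markers (80.1 CPM against 109 to 174 CPM) and NK cell markers (18.3 CPM against 19.8 to 50.9 CPM).

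Matrix genes had higher estimates in 38 of 57 with 6 mice and 40 of 57 with 4 (8102 of 15004 and 7683 of 15297 over all genes). Their medians were 0.17 and 0.14, and -0.008 with 6 mice after offsets for GC content and length (-0.15 over all genes). At an unadjusted p under 0.05, 2 were higher with 6 mice (0.247% of all genes). With 4 mice 11 were higher and 1 lower at that p (2.97% and 2.01%). Beside Tnc and Mmp12, DESeq2 called Mmp19, Tgfbi and Thbs1 of this list with 4 mice (0.641% of all genes). Thbs1, or thrombospondin 1, overlapped between the groups of 3, at 172, 200 and 382 CPM against 343, 402 and 291 CPM. Its log2 fold change was 0.46 (SE 0.43) with 6 mice and 0.77 (SE 0.19) with 4. Mmp19, a basement membrane metalloprotease, was at 13.0, 20.6 and 5.71 CPM against 39.8, 11.4 and 41.8 CPM. Tgfbi, a matrix protein induced by TGF-beta, was at 65.9, 85.8 and 35.0 CPM against 141, 42.1 and 127 CPM. In both genes the 2 libraries rich in mitochondrial counts were the lowest of their groups. Fn1, fibronectin, was at 549, 466 and 340 CPM against 771, 589 and 834 CPM, without overlap.

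In the lists of epithelial genes Sprr1a had the largest log2 fold change with 4 mice. Krt8, a keratin of simple epithelium, was at 96.0 and 119 CPM against 189 and 189 CPM in the 4 libraries, and at 34.4 CPM in saline mouse 3 and 50.9 CPM in treated mouse 11. Alveolar type 1 and type 2 cell markers had medians of 0.11 and 0.09, airway and squamous genes 0.18 and 0.27, and ciliated cell markers -0.02 and -0.10. With 4 mice 7 of 32 airway and squamous genes were higher and 3 lower at an unadjusted p under 0.05 (2.97% and 2.01% of all genes). DESeq2 called 3 of them higher with 4 mice (0.641%), Sprr1a among them. The oxidative stress list of Nrf2 targets lay at 0.07 and 0.01. In that list Gclc, of glutathione synthesis, was higher with 4 mice, at 130 and 145 CPM against 241 and 295 CPM, but was at 411 CPM in saline mouse 3 and 524 CPM in treated mouse 11. Gpx3, the secreted glutathione peroxidase, was lower with 4 mice, at 1334 and 1069 CPM against 750 and 702 CPM, and was at 1495 and 1354 CPM in the other 2 libraries. The heat shock and unfolded protein list had medians of 0.17 and 0.34, the circadian clock list 0.23 and 0.29, and the lists of interferon-induced, acute phase, dendritic cell, eosinophil and mast cell, xenobiotic, immediate early, lipid synthesis, and Notch and Wnt genes lay between -0.21 and 0.18 in both fits.

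Lower genes were fewer at an unadjusted p under 0.05 in both main fits, a balance that depended on the fit and on single mice. Mesothelial and adipose genes had medians of -0.27 with 6 mice and -0.45 with 4, red cell genes -0.44 and -0.42, endothelial markers -0.21 and -0.26, and smooth and cardiac muscle genes -0.22 and -0.21. In none of these lists was a member lower at an unadjusted p under 0.05 with 6 mice, where the background is 0.02%. With 4 mice 5 of 40 muscle, 2 of 32 endothelial and 0 of 11 red cell genes were lower at that p (background 2.01%). In the same order 0, 0 and 1 were higher (background 2.97%). Of 18 mesothelial and adipose genes 2 were higher and 6 lower, among the latter Upk3b, a uroplakin of mesothelium, at 55.5 and 53.3 CPM against 33.2 and 35.5 CPM. Msln, mesothelin, went the other way, at 39.1 and 39.5 CPM against 59.3 and 64.0 CPM. The 3 mesothelial markers summed to 98.7 and 95.1 CPM against 94.0 and 102 CPM in these 4 libraries. Tfrc, the transferrin receptor, was the red cell gene that was higher in every treated mouse, at 32.6, 49.3 and 46.9 CPM against 68.4, 73.0 and 71.7 CPM.

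Among single genes that were lower, Fabp3, a fatty acid binding protein of muscle, was at 18.9, 15.6 and 22.7 CPM with saline and 8.83, 11.7 and 7.11 CPM with Corexit 9527. The groups did not overlap, and the log2 fold change was -1.05 (SE 0.40) with 6 mice and -1.11 (SE 0.23) with 4. Bmp6, a bone morphogenetic protein that also regulates iron, was at 159, 135 and 103 CPM against 92.9, 87.8 and 79.4 CPM, again with each treated mouse below each saline mouse. Colq, the collagen tail of acetylcholinesterase, was at 67.3 and 44.9 CPM against 17.9 and 12.0 CPM in the 4 libraries, a log2 fold change of -1.91 (SE 0.29), but saline mouse 3 was at 12.3 CPM. Igfbp6, which binds insulin-like growth factors, was at 135 and 139 CPM against 71.4 and 68.1 CPM in the 4 libraries and at 9.20 and 8.46 CPM in the other 2. Ubp1, a transcription factor gene, was at 23.6, 18.6 and 32.5 CPM against 2.27, 7.71 and 6.22 CPM. It was listed at 0 in 5 of the 6 male mice of these treatments, so its values are uncertain. The third gene lower at an unadjusted p under 0.05 with 6 mice was Mid1, a ubiquitin ligase of microtubules, at 7.34, 73.1 and 27.9 CPM against 8.85, 5.26 and 9.78 CPM, where the groups overlapped and saline mouse 2 was far above the others.

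**Figure D4:**
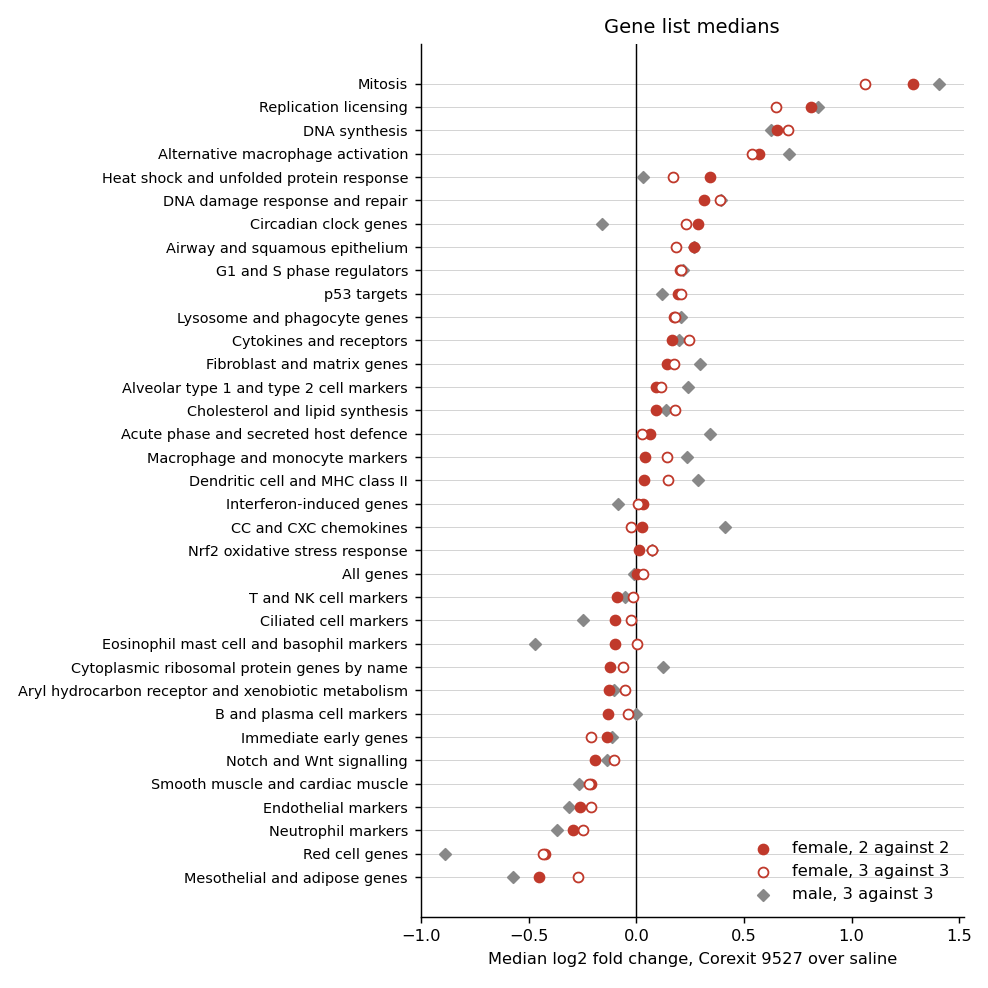
Median log2 fold change with Corexit 9527 of the tested members of each gene list (rows), of the cytoplasmic ribosomal protein genes and of all genes, in female mice without the 2 libraries rich in mitochondrial counts (filled red), in all 6 female mice (open red) and in male mice (grey diamonds). Mitosis has the highest median in all 3, at 1.28, 1.06 and 1.41.

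Male mice of the same 2 treatments share no animal with the females and were treated separately, so they give a second set of values for the same genes. Of 435 genes higher at an unadjusted p under 0.05 in the 4 female mice and tested in males, 407 (93.6%) had a higher estimate in males, where 48.5% of all 14794 genes tested in both sexes did. Of 300 genes lower in the females, 263 (87.7%) had a lower estimate in males, against 51.5% of all genes. Of the 37 genes higher with 6 female mice, 34 were tested in males and 30 of these were higher there. These shares are descriptions, since genes move together and are not independent.

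Of the genes named here, edgeR called 4 in males, namely Sprr1a and Colq (adjusted p = 0.0147 each) and Hmmr and Fn1 (adjusted p = 0.0468 each). Among those that missed were Mmp12 (0.0558), Tnc (0.116), Ccna2 (0.105) and Top2a (0.0729). Colq was lower there, with a log2 fold change of -1.08 (SE 0.10), and Hmmr and Fn1 were higher, with 2.01 (SE 0.27) and 0.73 (SE 0.10). Mmp12 had a log2 fold change of 2.38 (SE 0.34) in males, Tnc 2.48 (SE 0.55), Ccna2 1.85 (SE 0.38) and Top2a 1.76 (SE 0.32). Sprr1a had 4.52 (SE 0.37) in males, with 33.1, 46.3 and 17.4 CPM in the treated and 1.32 to 1.48 CPM in the saline males. The test of its difference between the sexes gave -1.44 (female minus male, SE 0.60), with an adjusted p of 0.99999 by edgeR. Retnla had 4.02 in males from saline levels of 23.8 to 32.8 CPM, far under those of saline females, and its difference was -2.27 (SE 1.01), again with an adjusted p of 0.99999 by edgeR. Cdkn1a gave -0.02 (SE 0.25) in males. Ncapd3, a condensin II subunit that is not in the mitosis list, was lower in both sexes. It was at 3.86 and 2.33 CPM against 1.38 and 0.393 CPM in the 4 female libraries and at 0 in the other 2, and at 7.67, 9.79 and 9.05 CPM in saline males against 2.37, 2.06 and 3.81 CPM in treated males.

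No difference between the sexes passed the test. Of 15328 genes tested for the interaction of sex and treatment in the 12 mice, edgeR called 0 at an adjusted p under 0.05, with 30 differences above 0 and 24 below 0 at an unadjusted p under 0.05. Without the libraries over 20% mitochondrial counts it again called 0, with 204 above 0 and 232 below 0 at that p. DESeq2 called 7, Hist2h2aa1 among them, all of them genes listed at 0 in at least 2 libraries of 1 sex. The groups lay apart in the same direction in both sexes for 140 higher and 30 lower genes, and in opposite directions for 13 genes higher in females and 7 higher in males. In all, 440 genes lay apart upward and 184 downward in females and 1623 and 1426 in males.

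**Figure D5:**
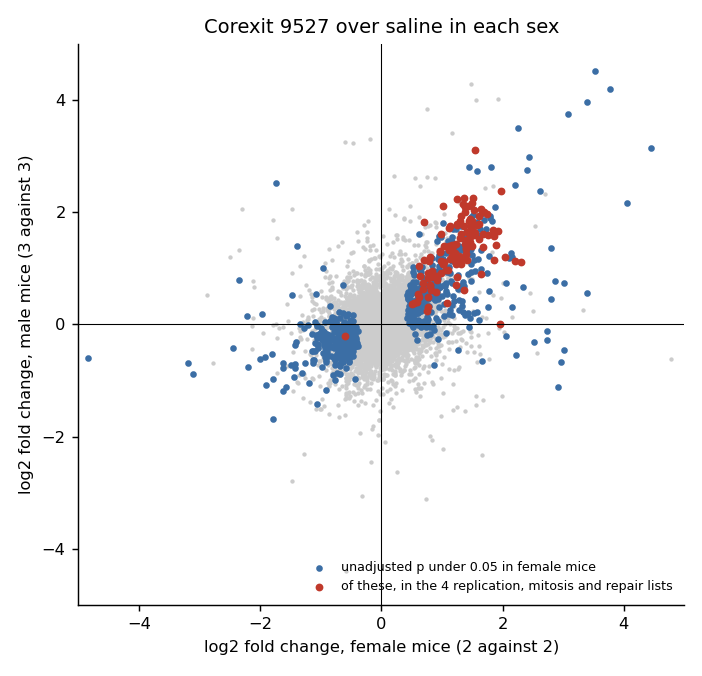
Log2 fold change with Corexit 9527 in female mice without the 2 libraries rich in mitochondrial counts (x axis) and in male mice (y axis) for 14794 genes, of which 6 lie outside the axes, with genes at an unadjusted p under 0.05 in females in blue and those of them in the replication, mitosis and repair lists in red. Most red points lie at the upper right, and 407 of the 435 genes higher in females at that p are above 0 on the y axis.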

How the data were processed

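Total RNA of the left lung was sequenced after poly(A) selection with a stranded kit. The authors estimated transcript abundance with Salmon against mouse cDNA (GRCm38), made a count matrix with tximport, and deposited estimated counts for each sex with rows named by gene symbol (the step from transcripts to genes is not given in the sources used here), in a table of 18120 rows for females, where every row sums to at least 10. These expected counts were already whole numbers, so rounding changed none. In the female table, 4 rows that share a name (0.0103% of counts) were left out and 20 other rows whose names had become dates were kept. Totals were 17501180 to 30011557 per library, which bounds the precision of low genes. Of the gene names, 95.4% matched GENCODE M21.

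Groups came from the labels, with 3 mice each. Each library is the left lung of 1 mouse. Genes were filtered with filterByExpr, scaled by TMM and tested with the edgeR 4.0.16 quasi-likelihood test (limma 3.58.1, R 4.3.3) with Benjamini-Hochberg adjustment. DESeq2 1.42.0, limma voom with sample quality weights, other scalings, filters, GC and length offsets and left-out mice were alternatives. Only the functions that fit the 2 groups and the interaction were tested on simulated counts. Those counts varied less between mice than these libraries and held no library rich in mitochondrial counts. Named genes were the 10 highest and 10 lowest fold changes at an unadjusted p under 0.05 with no overlap in each fit, the 3 smallest p values of each list, and the genes the study measured by PCR or called over both sexes, of which some are left out. Other members that DESeq2 called, members that went against their list, and genes given as contrasts (Cdkn1a, Mki67, Mid1 and Ncapd3 among them) were picked with their values known. The members and lists were chosen with earlier results of these data known. Results of 2 genes are not reported here.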

Additional observations from a re-analysis of the deposited data

Results flagged for a closer look

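The groups lay apart in opposite directions in the sexes in 13 genes higher in females and 7 higher in males, and 2 of these are among the genes selected for naming. In both, every treated female lay above every saline female, every treated male lay below every saline male, and the interaction of sex and treatment had an adjusted p of 0.99999 by edgeR's quasi-likelihood test.

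Hist2h2aa1, a histone H2A gene, had a difference of 7.55 (female minus male, log2 scale, SE 1.36), and DESeq2 called it with an adjusted p of 0.00046. It was at 0, 0.0542 and 0 CPM in saline females and at 1.57, 1.03 and 6.58 CPM in treated females, so the fitted difference depends on values near 0 and is no bound. Hist2h2aa2 is a near-identical copy, and how reads were divided between the copies was not tested. The summed level of both copies was 15.3, 11.5 and 0 CPM in saline and 8.90, 1.03 and 10.3 CPM in treated females, which overlapped, and 18.4 to 22.0 CPM against 15.6, 14.8 and 11.1 CPM in males.

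Zfp131, a zinc finger gene, had a difference of 2.62 (SE 0.74). It was at 9.02, 14.2 and 4.34 CPM in saline and 21.2, 61.5 and 21.4 CPM in treated females, with the lowest and the highest value in the 2 libraries rich in mitochondrial counts. With 4 females the log2 fold change was 0.87 (SE 0.25), and in males it was -0.72 (SE 0.24).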

How the results depend on the processing

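DESeq2 called 6 genes with 6 female mice, 113 with 4 and 7 for the difference between the sexes, where edgeR called 0 each time. Leaving out each mouse in turn gave 0 to 27 edgeR calls from the 4 mice (3 without saline mouse 1, 9 without saline mouse 2, 27 without Corexit 9527 mouse 10), 0 to 1 for the difference between the sexes (1 without female Corexit 9527 mouse 10) and 0 from the 6. A lone mouse of a group is then assumed to vary like the others. At an unadjusted p under 0.05 the 40 genes of the 6 mice became 1687 with voom and sample quality weights, 269 in a fit of all 18 female libraries, 85 without a filter, 114 with DESeq2 and 66 with GC and length offsets, and with a mouse left out between 21 (without saline mouse 1) and 158 (without saline mouse 3). Both other scalings gave 35. With mouse number as a replicate block, the difference between the sexes again had 0 calls, and 27 genes at an unadjusted p under 0.05 against 54 without it. The mice of the female comparison share no numbers, so no pairing was possible within it.

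Of 33 lists, 21 had a median above 0, and 7 did with GC and length offsets, which moved the median of all genes to -0.15. The mitosis median stayed between 0.82 and 1.31 in the settings run. With the offsets and 6 mice it was 0.82, the licensing median went from 0.65 to 0.19, the p53 target median from 0.21 to -0.00018, and Sprr1a from 3.06 to 1.94. With the offsets Pcna turned to -0.052, Fen1 to -0.46 and Cdkn1a to -0.37, and Fen1 ran from -0.52 (without Corexit 9527 mouse 10) to 0.87 with a mouse left out. The other 1141 of 1145 values of 68 named genes kept their direction. The cause of these changes was not tested. At this depth and with 3 mice a group, genes near 1 CPM rest on few counts, and those at 0 in the 2 libraries rich in mitochondrial counts cannot be compared there.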

Other observations

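Atxn1l, a gene of the ataxin family outside all lists, was at 5.55 and 4.85 CPM in saline mice 1 and 2 and at 27.0 and 25.3 CPM in Corexit 9527 mice 10 and 12, a log2 fold change of 2.33 (SE 0.20) with 4 mice, and was listed at 0 in both libraries rich in mitochondrial counts. In males the log2 fold change was 0.67 (SE 0.61). Fabp1, the liver-type fatty acid binding protein, was at 8.53, 6.34 and 7.19 CPM with saline and 2.17, 5.73 and 3.41 CPM with Corexit 9527, without overlap, and gave -1.41 (SE 0.34) with 4 female mice and -0.31 (SE 0.31) in males. Both genes were chosen after their values were seen.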
